A study of Mus musculus with 6 samples.

Results

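The levels of 9 marker genes of luminal progenitor and basal stem cells were followed across the lobes of the mouse prostate. They were Psca (listed in the table as PSCA), Ly6a (LY6A), Ly6d (LY6D), Prom1 (PROM1), Cd44 (CD44), Clu (CLU), Trp63 (TRP63), Itga6 (ITGA6) and Sox2 (SOX2). The genes were taken by symbol, as markers of proximal or progenitor luminal cells and of basal cells other than keratins, with earlier results of these data known but with no threshold on their values. All 9 were found among the 24908 genes of the table, and all 9 were among the 12361 genes whose level averaged 1 FPKM or more (FPKM, fragments scaled to transcript length in kilobases and to sequencing depth).

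Bulk RNA-seq was analysed from the anterior (AP), dorsolateral (DLP) and ventral (VP) lobes of the prostate in 1 wild-type (WT) and 1 MYC mouse, with 1 library per lobe and genotype and 6 in all. Both were 12-week-old FVB males of the Hi-MYC colony and received the same purified diet. The MYC mouse was heterozygous for a human c-MYC transgene under the ARR2Pb promoter, a probasin-derived promoter that is itself driven by androgen in the prostate epithelium, and the WT mouse was its littermate without the transgene. Each lobe was dissociated with enzymes before RNA was extracted from the cell suspension. All libraries of a genotype came from 1 animal, so that the effect of the genotype and the difference between 2 animals cannot be told apart, and no p-value was computed. In bulk tissue, fewer cells of a type and less RNA per cell cannot be told apart either.

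The prostate epithelium has an outer layer of basal cells, which sit on the basement membrane, and an inner layer of luminal cells, which secrete. Luminal cells near the urethra form a proximal compartment that is poor in secretory products, survives androgen withdrawal and can form organoids, and these cells are known by surface proteins such as Psca, Sca-1 (encoded by Ly6a) and Ly6d. Basal cells depend on the transcription factor p63 (encoded by Trp63) and are held to laminin by integrin α6 (encoded by Itga6) in hemidesmosomes. CD133 (encoded by Prom1) and CD44 have been used to enrich for stem cells by flow cytometry. Several of these genes are not particular to the epithelium, since Ly6a is also made by endothelial cells, Cd44 by leukocytes and Ly6d by developing B cells.

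The depth of the libraries ran from 25.5 M reads in WT AP to 50.3 M in MYC AP, as estimated from the steps between low FPKM values. The gene listed as Myc lay between 200.6 and 230.0 FPKM in WT, and reached 231 (AP), 586 (DLP) and 1696 (VP) FPKM in MYC, with reads of the mouse gene and of the transgene not told apart. The luminal keratins Krt8 and Krt18 had between 388 and 1611 FPKM in every library. The differences below are log2 ratios of FPKM + 1, and a gene was called when the ratio was at least 2-fold in either direction. Fold values given beside them are ratios of FPKM. Their 95% intervals rest on estimated numbers of reads and cover counting error only, not the difference between animals. Genes of the seminal vesicle were present mainly in one library, with 3 of 3 compared called higher in MYC for AP, 2 for DLP and 0 for VP. The summed level of a list of 6 was 522 FPKM in MYC AP and 9.17 FPKM in MYC DLP, and at most 0.105 FPKM in the other 4 libraries, in which 4 to 6 of the 6 genes are listed at 0.

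In the WT mouse, 7 of the 9 markers were lowest in VP, where 46.7% of all genes compared were lowest. Psca, Ly6d, Prom1, Cd44, Clu, Itga6 and Sox2 were highest in DLP, and Ly6a and Trp63 in AP. WT VP was at least 2-fold lower than WT DLP for 4 markers (Ly6a, Ly6d, Prom1 and Cd44) and higher for 0, against 6.29% and 2.63% of all genes. With median of ratios size factors 3 markers were lower, and over all genes 499 were higher and 530 lower in place of 325 and 778. Against WT AP, WT VP was lower for 2 markers (Ly6a and Prom1) and higher for 0, against 10.3% and 7.89% of all genes. WT DLP was higher than WT AP for 1 marker, Ly6d, and lower for 0, against 3.85% and 1.31%. These comparisons share libraries. The median log2 ratio of the 9 genes was -0.86 for WT VP against WT DLP and -0.70 for WT VP against WT AP, where all genes compared had medians of -0.13 and -0.01.

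Keratins and cell type markers differed between the lobes as well. The WT VP library held more luminal and less basal keratin: Krt8 had 399.9, 446 and 1292 FPKM across the AP, DLP and VP of the WT mouse, and Krt5 had 109, 115 and 33.0 FPKM. A ratio to either pair of keratins moved nearly all genes alike. Relative to Krt8 and Krt18, all 9 markers were at least 2-fold lower in WT VP than in WT AP and WT DLP, as were 10399 and 11475 of the 12361 genes. Relative to Krt5 and Krt14, 7 markers were at least 2-fold higher in WT VP than in WT AP, as were 11052 of all genes. Against WT DLP only 2 markers were, beside 9711 of all genes, with medians of 0.65 for the markers and 1.38 for all genes. The turn in direction is thus no result about the markers. Of 13 other basal genes, 10 were at least 2-fold lower in WT VP than in WT AP and 0 were higher (median -1.21). Genes of proximal luminal cells went the other way, with 5 of 9 at least 2-fold higher and 2 lower (median 1.34). Their summed level was 571 FPKM in WT AP and 1841 FPKM in WT VP, of which a single gene, Cbr2, took 207 and 1456 FPKM. Against WT DLP, 2 of these 9 were higher and 2 lower (median 0.08). Of 10 endothelial genes all 10 were lower than in either lobe, and the summed level of the endothelial list was 222, 160.2 and 36.2 FPKM across the AP, DLP and VP of the WT mouse, with 0 of 10 at 0 in every library. The part of this cell makeup in the lobe pattern of the markers was not tested.

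**Figure D1:**
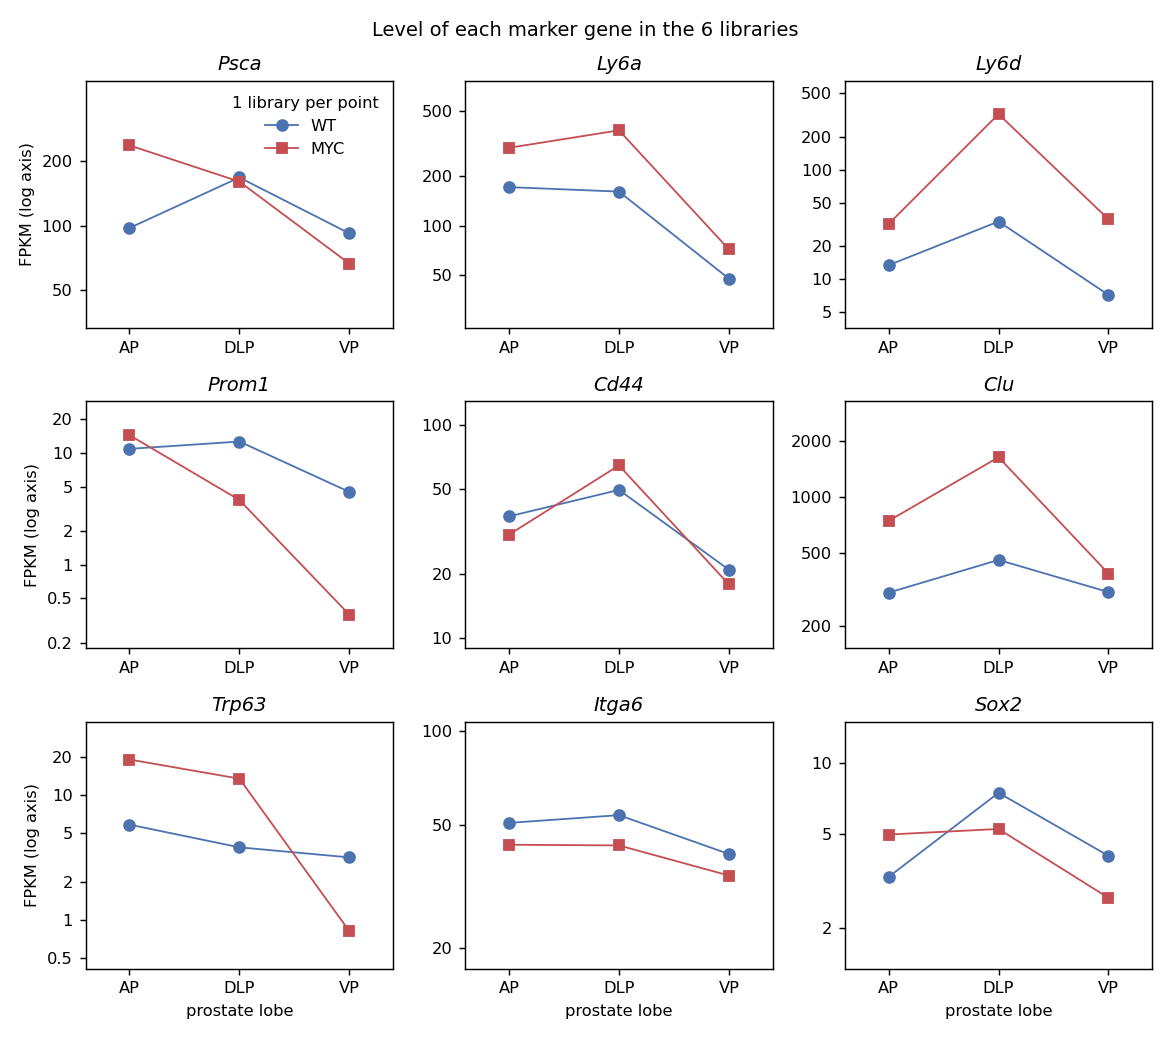
FPKM (log axis, its range differing between panels) of each of the 9 marker genes against lobe, with WT libraries as blue circles and MYC libraries as red squares, and 1 library per point joined by lines to guide the eye. Ly6d lies above its WT value in each MYC lobe, Trp63 lies above in AP and DLP and below in VP, and Prom1 is lowest in MYC VP at 0.357 FPKM.

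MYC and WT libraries of the same lobe differed in a few of the markers, and the set changed from lobe to lobe. In AP, 4 of the 9 were at least 2-fold higher in MYC (Psca, Ly6d, Clu and Trp63), against 2.05% of all genes, and 0 were lower, against 0.599%. In DLP, 4 were higher (Ly6a, Ly6d, Clu and Trp63), against 6.46%, and 1 was lower (Prom1), against 3.39%. In VP, 1 was higher (Ly6d), against 6.88%, and 2 were lower (Prom1 and Trp63), against 5.95%. With libraries scaled to equal sums of FPKM, the VP counts over all genes were 546 higher and 1089 lower in place of 850 and 736, and the AP counts with median of ratios size factors were 198 higher and 134 lower in place of 254 and 74, while the counts of the 9 markers were the same. The median log2 ratio of the 9 reached 0.79 in AP and 0.38 in DLP, and lay at -0.22 in VP, where all genes compared had medians of 0.13, 0.03 and 0.04. In the MYC mouse, 8 of the 9 markers were lowest in VP, where 44.6% of all genes were lowest, and Ly6d was the exception.

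**Figure D2:**
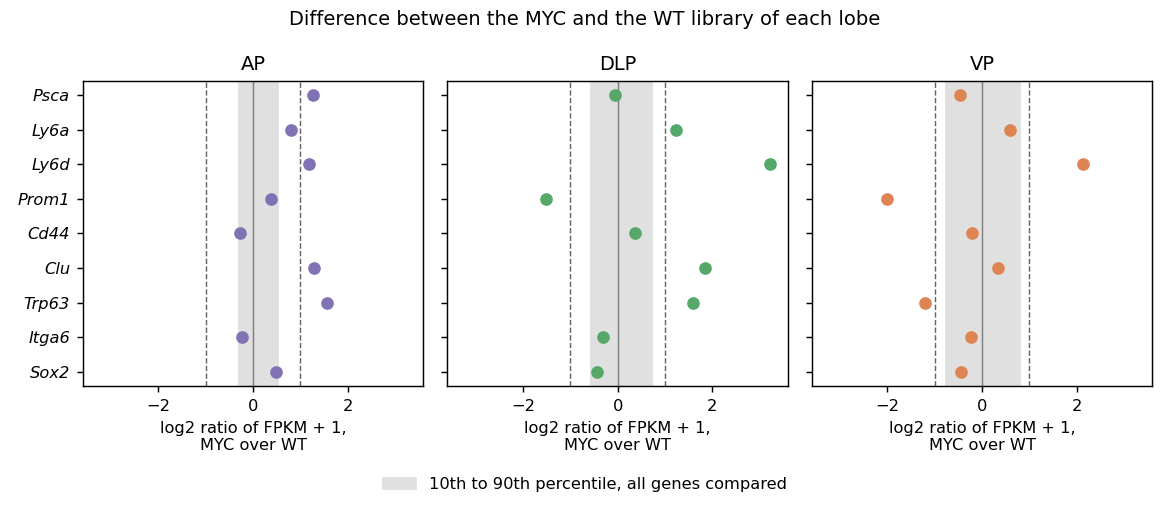
Log2 ratio of FPKM + 1 (MYC over WT, x axis) of the 9 markers in AP, DLP and VP, 1 library per genotype and lobe. Grey bands span the 10th to 90th percentile of the 12361 genes compared, and dashed lines mark a 2-fold difference; Ly6d is right of the dashed line in all 3 lobes and reaches 3.21 in DLP.

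Psca, Ly6a and Ly6d encode small surface proteins of the Ly6 family, which are held to the membrane by a glycolipid anchor. Ly6d, a marker of luminal progenitors that persist after castration, had 13.5, 33.7 and 7.23 FPKM across the AP, DLP and VP of the WT mouse, and 32.0, 321 and 35.3 FPKM across those of the MYC mouse. It was thus higher in MYC than in WT in each of the 3 lobes, although across lobes the ranges overlapped, since WT DLP lay above MYC AP. The difference was 9.53-fold in DLP (95% counting interval 8.84 to 10.3), 4.89-fold in VP (4.14 to 5.80) and 2.37-fold in AP (2.01 to 2.82). No other marker was called higher in all 3 lobes. Within the MYC mouse, DLP was 9.10 times VP, while VP and AP were within counting error of each other (1.10-fold, 0.996 to 1.22). Blood cell genes were higher in the same lobe: of 9 compared, 9 were at least 2-fold higher in MYC DLP and 0 lower (median 1.80), and the summed level of the list of 13 was 42.6 FPKM in WT DLP, with 1 gene at 0, and 288 FPKM in MYC DLP, with 0 at 0. Its B cell gene Cd79a measured 0.745 (WT) and 5.06 (MYC) FPKM in DLP. In VP, where Ly6d was also higher, 6 of the 9 blood cell genes were at least 2-fold higher and 0 lower. There Cd79a had 0.556 (WT) and 0.245 (MYC) FPKM, and the B cell gene Ms4a1 had 0.0394 FPKM in MYC. The part of B cells in the level of Ly6d was not tested in any lobe.

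Ly6a, which encodes Sca-1, a marker of proximal luminal progenitors, of endothelium and of blood stem cells, had 172, 161 and 47.4 FPKM across the AP, DLP and VP of the WT mouse, and 298, 381.6 and 71.6 FPKM across those of the MYC mouse. In each lobe the MYC library was above its WT counterpart, and both VP libraries were below the other 4. The fold was 2.37 in DLP (2.28 to 2.45), 1.74 in AP (1.67 to 1.81) and 1.51 in VP (1.41 to 1.62), and only that of DLP passed 2-fold. Set against Krt5 and Krt14 the log2 ratio in DLP was 0.59 in place of 1.24, on a reference that moved the median of all genes in DLP from 0.03 to -0.62. The endothelial list, which like Ly6a was lowest in VP in both mice, had 0 of 10 genes called in either direction between MYC DLP and WT DLP. Its summed level in DLP was 160.2 (WT) and 187 (MYC) FPKM. In MYC AP that sum was 240 FPKM, above MYC DLP, whereas Ly6a was higher in MYC DLP than in MYC AP. The part of endothelial cells in the level of Ly6a was not tested. Of the distinct 75-base stretches of Ly6a transcripts, 0.805% were found in another gene, Ly6i, which had at most 1.47 FPKM, and no stretch of the other 8 markers was shared with another coding gene.

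Psca, the prostate stem cell antigen and the third of these surface proteins, had 97.6, 168 and 92.1 FPKM across the AP, DLP and VP of the WT mouse. In MYC it had 238, 161 and 66.5 FPKM, so that the order of the lobes changed from DLP first to AP first. In AP the MYC library was 2.43-fold above the WT one (2.31 to 2.57). The ratio was near 1 in DLP (0.957-fold, 0.917 to 0.998) and 0.722-fold in VP (0.680 to 0.766). The difference between WT AP and WT VP was within counting error (1.06-fold, 0.997 to 1.13). MYC AP is also the library with seminal vesicle genes, among them Svs4 at 293 FPKM and Svs5 at 212 FPKM, both listed at 0 in WT AP, and the part of such tissue in the AP differences of Psca, Ly6d, Clu and Trp63 was not tested. Uroplakin genes, known as markers of the urothelium, also differed in AP. Of 3 compared, 2 (Upk1a and Upk2) were at least 2-fold higher in MYC and 0 lower. The summed level of the list of 5 was 21.0 FPKM in WT AP, with 1 gene at 0, and 54.6 FPKM in MYC AP, with 0 at 0. Of these sums Upk1a took 9.27 and 29.1 FPKM. In MYC DLP and in MYC VP 0 of the 3 were higher and 1 was lower, Upk1a, which had 268 and 493 FPKM in those lobes of the WT mouse. Upk2 had 1.14 and 1.15 FPKM there, so that the summed list is no measure of urothelium alone.

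Psca, Ly6d and Ly6a lie in one stretch of chromosome 15 (74714839 to 74998031 in GRCm38.p6, 283 kb) with other genes of the Ly6 family. RefSeq places Psca at 74714839 to 74717065, Ly6d at 74762056 to 74763567 and Ly6a at 74994877 to 74998031. The stretch holds 17 protein-coding genes, of which 15 were in the table and 8 passed the minimum of 1 FPKM. The 5 that are not markers did not move as a block. Lypd2 was at least 2-fold higher in MYC AP, with 0.549 (WT) and 3.01 (MYC) FPKM, and Ly6k was lower in AP (11.9 and 2.78 FPKM) and in VP (6.43 and 0.945 FPKM). In DLP, where Ly6d and Ly6a were both higher, 0 of the 5 were called, and their neighbour Ly6e had 415 (WT) and 653 (MYC) FPKM.

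**Figure D3:**
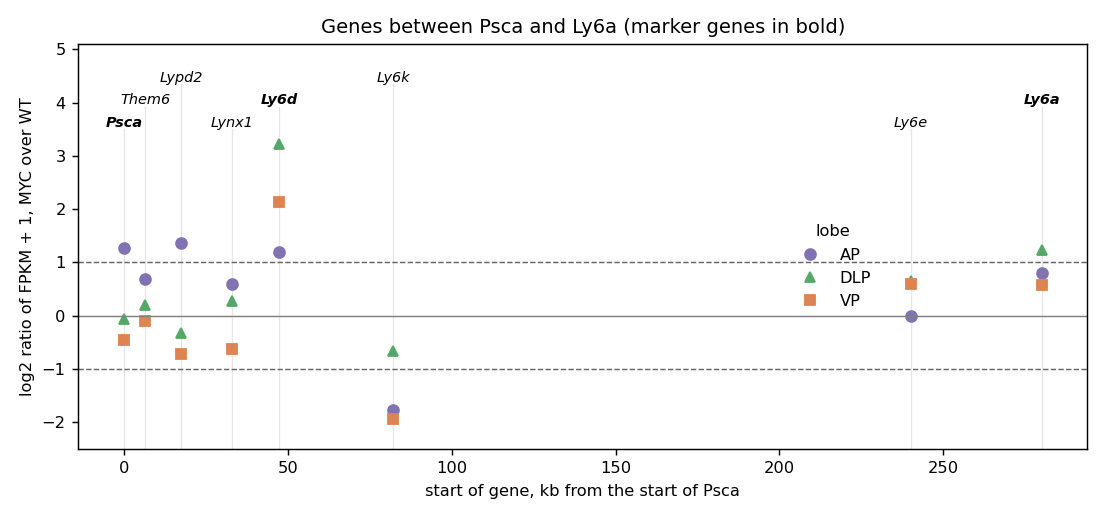
Log2 ratio of FPKM + 1 (MYC over WT) of the 8 genes compared between Psca and Ly6a, against the distance of their start from the start of Psca in kb; circles, triangles and squares are AP, DLP and VP, with 1 library per genotype and lobe. Ly6d stands out at 3.21 in DLP, whereas Ly6k lies at -1.78 in AP and -1.93 in VP.

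Other genes of the Ly6 family were chosen as a list of 14, of which 9 were compared, among them Lypd2, Lynx1, Ly6k and Ly6e of the same stretch. In DLP 2 of them were at least 2-fold higher (Lypd3, from 3.68 to 21.7 FPKM, and Gpihbp1, from 12.3 to 26.9 FPKM) and 0 were lower (median 0.46). In AP 1 was higher and 1 lower (median 0.07), and in VP 0 were higher and 1 lower (median -0.30), and these calls were again those of Lypd2 and Ly6k.

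Clu (chromosome 14, 65968483 to 65981548) encodes clusterin, a secreted chaperone that is abundant in proximal luminal cells. It was the member with the highest level, at 304, 456 and 306 FPKM across the AP, DLP and VP of the WT mouse, and 741, 1636 and 385 FPKM across those of the MYC mouse. All 3 MYC libraries were above their WT counterparts, and WT AP and WT VP could not be told apart within counting error (1.01-fold, 0.974 to 1.04). The fold was 3.59 in DLP (3.52 to 3.66), 2.44 in AP (2.37 to 2.51) and 1.26 in VP (1.23 to 1.29).

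Other genes of proximal luminal cells followed the same lobes only in part. Of 9 such genes, 5 were at least 2-fold higher in MYC DLP and 0 lower (median 1.11), 4 were higher and 1 lower in MYC AP (median 0.71), and 0 were higher and 3 lower in MYC VP (median -0.15). Wfdc2, a secreted protease inhibitor family member, went from 34.6 to 179.7 FPKM in DLP and from 13.7 to 49.6 FPKM in AP. Tspan8, a tetraspanin, went from 48.7 to 149 FPKM in DLP and from 28.6 to 109 FPKM in AP. Krt4, a keratin of proximal luminal cells, was higher in MYC AP and DLP (10.2 and 30.1 FPKM, and 20.3 and 45.9 FPKM) and lower in MYC VP (53.3 and 7.09 FPKM).

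Prom1 encodes CD133, a membrane glycoprotein of cell protrusions. It had 10.9, 12.6 and 4.48 FPKM across the AP, DLP and VP of the WT mouse, and 14.4, 3.79 and 0.357 FPKM across those of the MYC mouse. The MYC and WT values thus diverged in the opposite direction in DLP and VP from AP. It was 12.5-fold lower in MYC VP than in WT VP (9.26 to 17.2, on an estimated 46 reads in MYC VP), 3.33-fold lower in DLP (3.00 to 3.72) and 1.33-fold higher in AP (1.23 to 1.44). Prom1 (chromosome 5, 43993621 to 44102047 in GRCm38.p6) has more than one start, and the table sums them.

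RefSeq windows from 250 bases before to 50 bases after a start were at hand for 3 of the 9 markers (Prom1, Cd44 and Sox2), in 4 windows. Those of Prom1, the marker with the largest fall, are shown, both on the minus strand: chr5:44101687-44101986 (upstream start) and chr5:44094719-44095018 (downstream start). Capitals mark TGTTCT, the reverse complement of AGAACA, which forms one arm of the androgen response element, and whose first base is at position -21 from the downstream start.
Prom1 upstream start: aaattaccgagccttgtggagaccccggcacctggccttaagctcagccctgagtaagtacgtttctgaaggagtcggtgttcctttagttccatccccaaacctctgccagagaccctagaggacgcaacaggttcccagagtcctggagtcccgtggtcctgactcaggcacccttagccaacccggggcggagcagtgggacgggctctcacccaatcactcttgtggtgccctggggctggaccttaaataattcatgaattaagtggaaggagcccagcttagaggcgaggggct
Prom1 downstream start: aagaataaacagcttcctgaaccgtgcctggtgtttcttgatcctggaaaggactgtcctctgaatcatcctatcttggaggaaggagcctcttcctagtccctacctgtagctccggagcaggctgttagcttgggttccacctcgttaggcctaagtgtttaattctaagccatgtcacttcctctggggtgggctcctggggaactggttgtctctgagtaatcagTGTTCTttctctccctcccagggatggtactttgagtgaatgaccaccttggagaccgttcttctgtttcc
AGAACA or TGTTCT was found in 19.0% of the 32851 windows of the RefSeq table, and among the 4 windows of the markers only in the downstream one of Prom1. The palindrome CACGTG, the motif bound by MYC with MAX, was in 7.15% of all windows and in 0 of these 4. A match in letters is a description and was not tied to any binding here.

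Some fibroblast genes were low in the same libraries as Prom1, and others were not. Dpt encodes dermatopontin, a protein of the connective tissue matrix. It had 49.1, 42.4 and 17.2 FPKM in the WT and 63.9, 11.4 and 1.41 FPKM in the MYC lobes. This is the same order of libraries as for Prom1 but for WT AP and WT DLP. Of 7 fibroblast genes, 4 were at least 2-fold lower and 0 higher in MYC VP (median -1.72), 3 were lower and 2 higher in DLP (median -0.07), and 0 were lower and 3 higher in AP (median 0.46). Those higher in DLP, where Prom1 was lower, were the collagens Col1a1 and Col3a1. The summed level of the list was 1250.0, 1327 and 665 FPKM across the AP, DLP and VP of the WT mouse, and 1429, 709.8 and 196 FPKM across those of the MYC mouse, with 0 of 7 at 0. A single gene, Dcn, took most of this sum, with 1155 (WT) and 454 (MYC) FPKM in DLP. Secretory luminal genes were lower as well: of 8, 4 were lower in MYC VP and 5 in MYC DLP, with 0 and 1 higher, while 2 were higher and 0 lower in MYC AP, and Pbsn, which encodes probasin, went from 2055 to 1.90 FPKM in VP. The part of either cell type in the level of Prom1 was not tested.

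**Figure D4:**
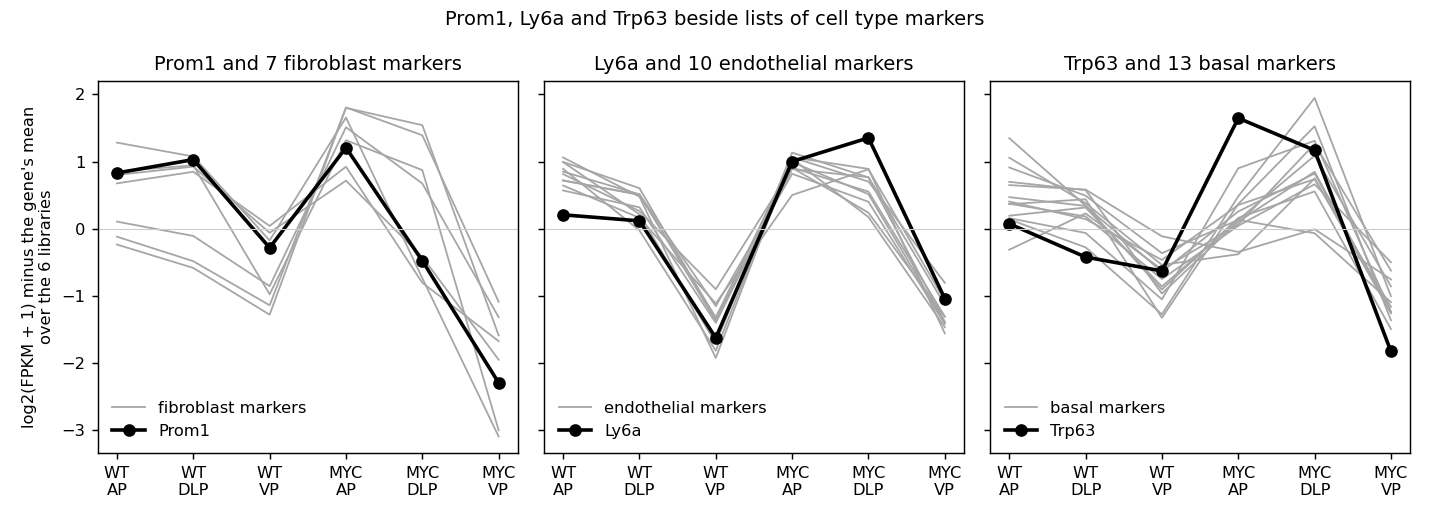
Log2(FPKM + 1) less the gene's mean over the 6 libraries (y axis) against library, for Prom1, Ly6a and Trp63 (black points) beside 7 fibroblast, 10 endothelial and 13 basal marker genes (grey lines, 1 gene each). Prom1 and all 7 fibroblast markers are lower in MYC VP than in MYC AP, Ly6a is low with the endothelial markers in both VP libraries, and Trp63 lies above all basal markers in MYC AP and below them in MYC VP.

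Trp63, which encodes the basal transcription factor p63, had 5.79, 3.81 and 3.17 FPKM across the AP, DLP and VP of the WT mouse, and 19.2, 13.5 and 0.814 FPKM across those of the MYC mouse. The WT values lay close together, and MYC AP and MYC DLP were above and MYC VP below all of them. It was 3.32-fold higher in MYC AP (3.02 to 3.66), 3.54-fold higher in MYC DLP (3.22 to 3.89) and 3.89-fold lower in MYC VP (3.16 to 4.80, on an estimated 113 reads in MYC VP), the only marker called in opposite directions in different lobes. Relative to Krt8 and Krt18 the log2 ratio in VP was -0.94 and relative to Krt5 and Krt14 it was -0.89, in place of -1.20, so that it then missed 2-fold. In DLP it was 0.94 relative to Krt5 and Krt14, in place of 1.59. The table sums the transcripts of Trp63 (chromosome 16, 25683763 to 25892088), so that its long and its N-terminally truncated forms cannot be told apart.

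Other basal genes differed from Trp63 in their calls, most of all in AP and VP. Of 13 of them, 4 were at least 2-fold higher in MYC DLP (Krt5, Trim29, Dlk2 and Ngfr) and 0 lower (median 0.48), 0 were higher and 2 lower in MYC AP (Krt14 and Krt17, median -0.21), and 0 were called in MYC VP (median -0.29). In AP, where Trp63 was higher, the basal keratin Krt5 had 109 FPKM in both mice, and Krt14 had 760.5 (WT) and 333 (MYC) FPKM. In VP, where Trp63 was lower, 3 of the 13 were above their WT level. Krt5 had 33.0 (WT) and 32.1 (MYC) FPKM there, and Krt14 had 158 (WT) and 105 (MYC) FPKM. The summed level of the basal list was 2715, 1924 and 942 FPKM across the AP, DLP and VP of the WT mouse, and 1472, 2411 and 628 FPKM across those of the MYC mouse, with 0 of 13 at 0 in every library.

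Itga6 (chromosome 2, 71786886 to 71858427), the laminin-binding chain of the basal cell integrin, varied least of the 9. It had 50.6, 53.6 and 40.2 FPKM across the AP, DLP and VP of the WT mouse, and 43.0, 42.8 and 34.2 FPKM across those of the MYC mouse, so that the highest value was 1.57 times the lowest. Each MYC library was slightly below the WT library of its lobe, at 0.850-fold in AP (0.811 to 0.892), 0.799-fold in DLP (0.764 to 0.834) and 0.852-fold in VP (0.813 to 0.893), and none passed 2-fold. The sign turned in AP relative to Krt5 and Krt14 (log2 ratio 0.36 in place of -0.23, with the median of all genes moved to 0.72) and in VP relative to either pair of keratins (medians of all genes 0.30 and 0.35). In MYC, AP and DLP were within counting error of each other (1.01-fold, 0.961 to 1.05). Genes for its partner chains, its laminin ligands and the linkers of the hemidesmosome were near their WT level too. Of 11 such genes, 1 was at least 2-fold higher in MYC DLP (Lama5, a laminin chain, with 28.9 (WT) and 59.1 (MYC) FPKM), and 0 were called in AP or VP, with medians of -0.06, 0.23 and -0.27 in AP, DLP and VP.

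Cd44 (chromosome 2, 102811141 to 102901669), the receptor for hyaluronan, had 37.3, 49.6 and 20.9 FPKM across the AP, DLP and VP of the WT mouse, and 30.6, 64.7 and 17.8 FPKM across those of the MYC mouse. Its order of lobes was DLP, AP, VP in both mice. The difference between WT DLP and WT VP was 2.37-fold (2.28 to 2.47), larger than any between the genotypes. Those were 1.30-fold in DLP (1.26 to 1.35), 0.821-fold in AP (0.785 to 0.859) and 0.853-fold in VP (0.809 to 0.899), and each turned sign relative to Krt5 and Krt14 (log2 ratios of 0.32, -0.27 and 0.09 for AP, DLP and VP, where the medians of all genes were 0.72, -0.62 and 0.35). Leukocytes also make Cd44, and Ptprc, which encodes the leukocyte antigen CD45, measured 3.18 (WT) and 11.4 (MYC) FPKM in DLP, and 1.91 (WT) and 4.72 (MYC) FPKM in VP. The part of leukocytes in the level of Cd44 was not tested, and the splice forms of Cd44 cannot be told apart in a table by gene.

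Sox2 (chromosome 3, 34649995 to 34652461), a transcription factor of stem cells that basal and neuroendocrine cells of the prostate can express, was the marker with the lowest level in WT AP. It had 3.29, 7.48 and 4.04 FPKM across the AP, DLP and VP of the WT mouse, and 4.97, 5.25 and 2.68 FPKM across those of the MYC mouse. The MYC library was above WT in AP and below it in DLP and VP, and none of these differences passed 2-fold. MYC DLP and MYC AP were within counting error of each other (1.06-fold, 0.925 to 1.21). The differences from WT were 1.51-fold in AP (1.28 to 1.80), 0.702-fold in DLP (0.620 to 0.794) and 0.663-fold in VP (0.563 to 0.779). Between WT DLP and WT AP the log2 ratio was 0.98, just under the threshold, and the ratio of FPKM was 2.27 (1.93 to 2.69). The estimated reads of Sox2 were as few as 180 in WT AP.

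Relatives of Sox2 and Trp63 were chosen as a list of 7, of which 4 were compared. In MYC VP 2 were at least 2-fold higher, Sox4 (8.51 and 23.2 FPKM) and Trp53, which encodes p53 (16.9 and 37.4 FPKM), and 0 were lower, while 0 were called in AP or DLP. Trp73, the closest relative of Trp63, had at most 0.229 FPKM. Of 8 genes of glia and neuroendocrine cells, 2 were compared, and 1 of these, Calca, was at least 2-fold higher in MYC DLP. The neuroendocrine gene Chga had 0.0459, 2.35 and 0.354 FPKM across the AP, DLP and VP of the WT mouse, and 0.140, 1.08 and 0.214 FPKM across those of the MYC mouse, and thus was highest in WT DLP, as Sox2 was. The part of neuroendocrine cells in the level of Sox2 was not tested.

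Genes with a pattern most like each marker over the 6 libraries were sought among 7321 or 7322 candidates by Pearson's r of log2(FPKM + 1). The 6 points come from 2 mice and share lobes and depth, and r, which lay between 0.978 and 0.998, is given as a description only. Clu was nearest to Sp110 (r = 0.998) and to Krt7 (r = 0.995), a keratin of proximal luminal cells with 69.4 (WT) and 151 (MYC) FPKM in DLP. Prom1 was nearest to Islr (r = 0.998) and Penk (r = 0.997), which encodes proenkephalin and measured 87.2 (WT) and 17.6 (MYC) FPKM in VP. Ly6a was nearest to Znfx1 and Ehd3 (both r = 0.993), Ly6d to Sephs2 (r = 0.995) and Psap (r = 0.994), and Psca to Nudt7 (r = 0.988) and Acadm (r = 0.983), which encodes an enzyme of fatty acid oxidation. Trp63 was nearest to Lrp4 (r = 0.985) and Foxs1 (r = 0.982), and Itga6 to Metrnl (r = 0.994) and Arl6ip5 (r = 0.993). Cd44 was nearest to Cpne2 (r = 0.988) and Shld1 (r = 0.981), and Sox2 to Cdo1 (r = 0.983) and Abhd12 (r = 0.978).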

How the data were processed

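Poly(A) RNA of 6 prostate lobe suspensions was sequenced by the authors as stranded, single-end reads of 75 bases. They aligned the reads with STAR and deposited 1 table of FPKM per gene made with Cufflinks; the submitters' processing notes name mm10, and the annotation is not given in the sources used here. The deposited FPKM values are normalized to depth and transcript length, so no count test was run. FPKM + 1 was compared on the log2 scale, which understates changes of low genes, over genes averaging 1 FPKM or more, and a 2-fold difference was called. Depth was recovered from steps between the values of low single-exon genes, as a depth that puts them near whole reads. At that depth 48.6% to 61.9% of 147 to 191 values per library lay within 0.1 of a whole read. By chance 20% would at a depth fixed in advance, and more at a depth picked for its fit. Depths and read estimates are therefore approximate. Intervals are exact binomial (Clopper-Pearson) at 95%. The fold and depth steps were tested on simulated data. Coordinates and promoter windows are from RefSeq (GRCm38.p6, the assembly of mm10), and transcript lengths and shared 75-base stretches from GENCODE M1. The 9 markers and the 13 gene lists were chosen with earlier results of these data known. Named genes are the 9 markers, list genes on which a sentence turns, and for each marker the 2 genes of highest r among those with a mean of at least 1 FPKM and an SD of at least 0.3 on the log2 scale. The alternatives were other scalings, pseudocounts, filters and thresholds and keratin references. Python with numpy, pandas, scipy and matplotlib was used. Some members of the lists are not reported here by name.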

Additional observations from a re-analysis of the deposited data

Results flagged for a closer look

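The difference between MYC and WT changed sign between lobes in 5 markers, of which Cd44 and Sox2 were under 2-fold in each lobe and the other 3 were called in at least 1. With 1 library per lobe and genotype, none of these changes was tested. Trp63 had a log2 ratio of 1.57 for AP, of 1.59 for DLP and of -1.20 for VP, so that VP differed from AP by -2.77 and from DLP by -2.79. Prom1 had 0.38 in AP against -1.51 in DLP and -2.01 in VP, differences of -1.89 and -2.39. Psca had 1.28 in AP against -0.06 in DLP and -0.46 in VP, differences of -1.34 and -1.74.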

How the results depend on the processing

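Of the 27 ratios of the 9 markers between MYC and WT, 12 were called; all 12 kept their direction, and 9 stayed past 2-fold, under each other scaling, pseudocount, filter and keratin reference that gave them a value, among which only the ratio with no pseudocount was added after seeing the data. Ly6a (0.59) and Trp63 (0.94) in DLP missed 2-fold relative to Krt5 and Krt14, and Trp63 in VP under both keratin references; Ly6a (1.39) and Sox2 (1.07) in AP and Sox2 (-1.09) in DLP passed it relative to Krt5 and Krt14. The markers called between MYC and WT numbered 4 in AP, 5 in DLP and 3 in VP. With a mean of at least 10 FPKM, which leaves 6 markers, AP had 3, DLP 3 and VP 1, and in WT there were 1 for VP against AP in place of 2, 3 for VP against DLP in place of 4, and 1 for DLP against AP as before. Of the 5360 genes left by that filter, 117 were higher and 42 lower in AP, 241 and 195 in DLP, 385 and 386 in VP, and in WT 530 and 522, 176 and 357, and 235 and 62 in the same order. At 4-fold, AP had 0, DLP 1 and VP 2, and in WT there were 0 for VP against AP, 1 for VP against DLP in place of 4, and 0 for DLP against AP in place of 1. Over all genes 67 were then higher and 15 lower in AP, 196 and 78 in DLP, 148 and 114 in VP, and in WT 214 and 199, 85 and 92, and 87 and 28. Relative to Krt8 and Krt18, 9 were called in WT VP against WT AP and 9 against WT DLP, as were most genes (10399 and 11475 lower of 12361). Relative to Krt5 and Krt14, the counts were 7, 2 and 4 for VP against AP, VP against DLP and DLP against AP, with 11052, 9711 and 1751 of all genes higher. With a pseudocount of 0.1 or with none (added after seeing the data), 2 were called in WT DLP against WT AP, with 736 higher and 299 lower of all genes, or 741 and 321. No paired analysis was possible because the 3 pairs of lobes come from 1 animal of each genotype, and each lobe has 1 library of each. Leaving out a library leaves its comparison with no value. Over all genes, the split of higher and lower calls in DLP was 799 and 419, and 642 and 563 with equal sums without the 20 highest genes; in VP it was 710 and 919 with median of ratios. At 46 to 180 estimated reads, counting error limits Prom1 and Trp63 in MYC VP, Ly6d in WT AP and VP, and Sox2 in WT AP.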

Other observations

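Secretory and smooth muscle genes, which are not among the markers, also differed between the mice. Spink1, a trypsin inhibitor of the ventral lobe, measured 25232 (WT) and 285 (MYC) FPKM in VP, and 0.197 (WT) and 79.5 (MYC) FPKM in DLP. Msmb, a secreted protein of the lateral and ventral lobes, measured 8601 (WT) and 346 (MYC) FPKM in DLP. Of 6 smooth muscle genes, 3 were at least 2-fold lower in MYC DLP and 2 in MYC VP, with 0 higher, and 0 were called in AP (median 0.76).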
